A study of Mus musculus with 44 samples.

Results

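The 56 genes described here are the secreted and membrane-bound metalloproteases of mouse heart tissue and their tissue inhibitors, taken by gene symbol from an expression array on which 12394 genes were tested. Members were the genes whose symbol was Mmp, Adam, Adamts, Adamtsl or Timp followed by a number. This gave 18 matrix metalloproteases (MMPs), 25 ADAMs, 7 ADAMTS proteases, 2 ADAMTS-like proteins and 4 TIMPs. They were measured by 85 probe sets, and the probe set with the largest standard deviation stood for the gene where there were several, as for 19 members.

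RNA came from the left ventricle of 44 mice, with 1 array a mouse. All mice had the FVB/N background. The PKCe mice carried a constitutively active rabbit PKC epsilon under the mouse Myh6 promoter, which restricts it to cardiomyocytes. The FVB mice were their wild-type controls. From 3 months of age, every mouse received intraperitoneal injections of either a control IgG or FG-3149, which binds connective tissue growth factor (CTGF), at 30 mg/kg 2 times a week for 3 months, and hearts were taken at 6 months. The groups were FVB IgG (10 mice, 7 females), FVB FG-3149 (12 mice, 6 females), PKCe IgG (10 mice, 5 females) and PKCe FG-3149 (12 mice, 6 females). No group went without an injection.

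MMPs are zinc proteases that cut collagens and other matrix proteins, and most are secreted as inactive precursors. ADAMs are membrane proteases that release the outer parts of growth factors, cytokines and receptors, and ADAMTS proteases cut proteoglycans such as versican and aggrecan or process collagen and fibrillin. TIMPs bind the active site of these enzymes and block it, and TIMP3 also blocks several ADAMs and ADAMTS proteases. In the heart, most MMPs and TIMPs come from fibroblasts and infiltrating cells, while Timp3 and Timp4 are also made by cardiomyocytes. An array reads RNA and does not show whether an enzyme was activated or inhibited.

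A level below is the log2 of the deposited ratio to the median of that probe set over the 44 arrays. It is 0 on the median array and cannot rank one gene against another. A difference is the group difference in log2 level with sex as a covariate, with its standard error, from a limma fit on all genes and arrays. A gene was called at a Benjamini-Hochberg adjusted p under 0.05 over all 12394 genes.

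Several properties of the arrays bear on the values. The mean level of the atrial genes Sln, Myl7 and Myl4 was above 4 on 10 arrays, 5 of them FVB IgG females, and on 1 FVB FG-3149, 2 PKCe IgG and 2 PKCe FG-3149 arrays. PKCe IgG replicates 9 and 10 had high lung surfactant Sftpc (9.32 and 3.53), and these are the lung-marker arrays below. Another lung marker, Scgb1a1, was high on them (10.11 and 3.71) and on arrays of other groups. It was 9.36, 4.59 and 5.08 on FVB IgG replicates 4, 5 and 9. On FVB FG-3149 replicates 5, 6, 7 and 11 it was 3.10, 5.17, 4.47 and 2.47. On PKCe FG-3149 replicate 7 it was 4.74. The FVB FG-3149 replicate 11 is labelled female and had a Uty level of 3.63, a gene of the Y chromosome. The difference between the 3' and 5' control probe sets of Gapdh, a sign of RNA quality, ran from 0.06 through 0.25 to 0.90 in PKCe IgG mice. It ran from -0.18 through -0.04 to 0.11 in FVB IgG, from -0.38 through -0.18 to 0.29 in FVB FG-3149 and from -0.14 through 0.04 to 0.22 in PKCe FG-3149 mice. Its median was thus higher with the transgene under both antibodies and lower with FG-3149 in both genotypes. Mouse numbers were 420 to 443 in FVB IgG and 338 to 349 in FVB FG-3149 mice. They were 192 to 362 in PKCe IgG mice, a range that encloses the FVB FG-3149 numbers, and 38 to 191 in PKCe FG-3149 mice. The labels name no batch, and a batch that followed these numbers could not be told apart from group. Because each value is a ratio to the probe set's own median, the deposited values do not show whether a tissue marker is present. Of 10 ventricular cardiomyocyte markers, 1 was higher and 4 were lower in PKCe IgG than in FVB IgG mice. The probe set for Prkce was higher in PKCe IgG than FVB IgG mice by 0.49 ± 0.145 (adjusted p = 0.00596), and Ccn2, which encodes CTGF, was higher by 0.74 ± 0.227 (adjusted p = 0.00756).

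The first comparison asks what the transgene did under control IgG. Of the 56 members, 26 were called between PKCe IgG and FVB IgG mice, against 42.2% of all genes. Of these, 10 were higher (20.7% of all genes were) and 16 were lower (21.5% of all genes were). Those shares are near the background. Differences of at least 0.5 were found for 8 of the 10 that rose and for 6 of the 16 that fell. With the Gapdh difference as a covariate, 17 members were called, and the share of all genes in that fit is not given here. The median difference over members was -0.07, and it was -0.05 over all genes.

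Timp1, the most inducible TIMP, showed the largest difference of any member. Its level ran from -1.47 through a median of -0.42 to 1.24 in FVB IgG mice, and from 0.29 through 1.36 to 3.45 in PKCe IgG mice. All 10 transgenic arrays were above the control median and 5 were above every control array. The difference was 2.11 ± 0.273, a 4.31-fold higher level (adjusted p = 3.43e-08). Leaving out the 10 arrays with an atrial level above 4 gave 2.70 ± 0.317, and leaving out both lung-marker arrays gave 1.97 ± 0.279.

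Timp3 and Timp4 moved the other way. Timp3, the matrix-bound inhibitor, was lower in PKCe IgG mice, with levels from -0.94 through -0.29 to 0.73 against -0.15 through 0.60 to 1.76. Its difference was -0.76 ± 0.201 (adjusted p = 0.00228). Timp4, the TIMP most restricted to heart, ran from -1.99 through -0.31 to 1.68 against -0.34 through 0.27 to 1.70, a difference of -0.88 ± 0.302 (adjusted p = 0.0168). The groups overlapped for both. The second Timp4 probe set gave -0.50 ± 0.213 (adjusted p = 0.0533), and without the atrial-high arrays the Timp4 difference was -0.78 ± 0.37 (adjusted p = 0.0935). Timp2, which also helps MMP14 activate MMP2, did not pass the threshold at 0.38 ± 0.169 (adjusted p = 0.0658), although 3 of its other 5 probe sets were higher (0.36 to 0.55, adjusted p = 0.000455 to 0.0151). The chosen Timp2 probe set was above the control median on all 10 transgenic arrays. Adipocyte markers were lower beside Timp3 and Timp4, for 5 of 6 markers with a median difference of -1.22. Their mean level ran from -0.87 through 1.01 to 3.26 in FVB IgG mice and from -1.03 through -0.42 to 0.93 in PKCe IgG mice, and their part in the TIMP differences was not tested.

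**Figure D1:**
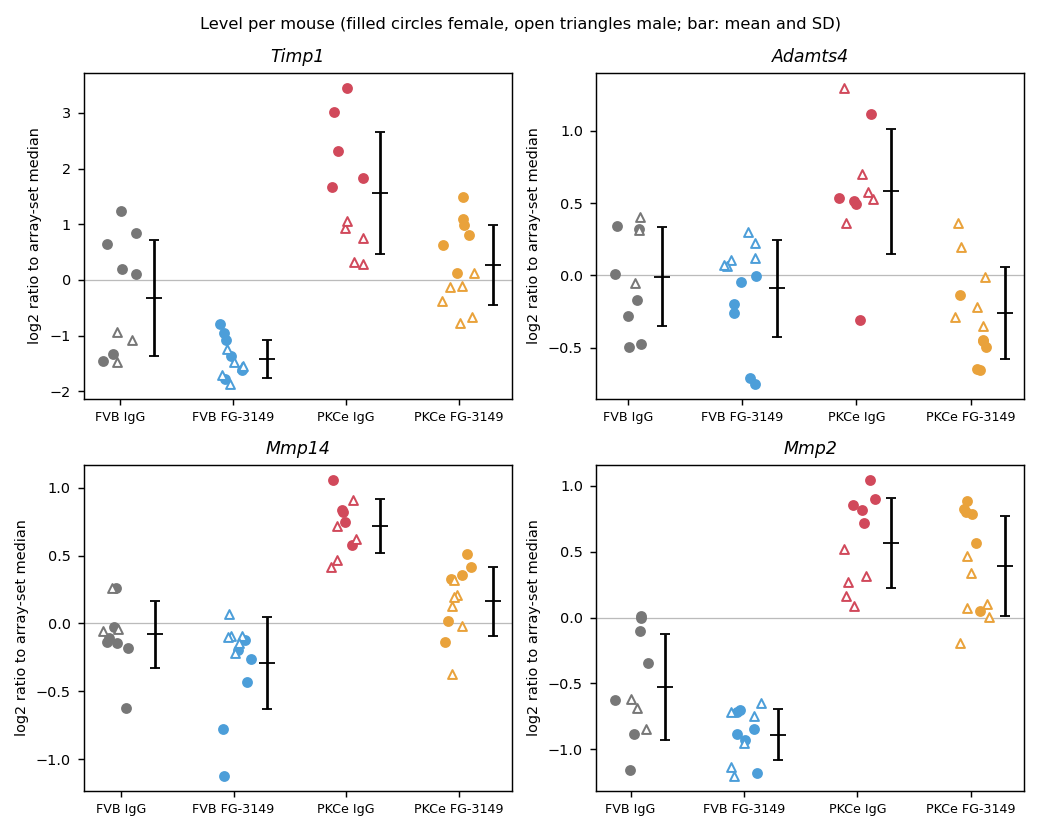
Level per mouse of Timp1, Adamts4, Mmp14 and Mmp2 in the 4 groups (vertical axis: log2 ratio to the median over 44 arrays; filled circles are females, open triangles males; the bar is the mean and SD of 10 or 12 mice). All 10 PKCe IgG mice lie above all 10 FVB IgG mice for Mmp14 and Mmp2, and the PKCe IgG females are the highest for Timp1.

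Among the gelatinases, Mmp2 and Mmp9 moved in opposite directions. Mmp2, secreted mainly by fibroblasts, had levels from -1.16 through -0.62 to 0.01 in FVB IgG mice and from 0.09 through 0.62 to 1.04 in PKCe IgG mice. The groups did not overlap. The difference was 1.16 ± 0.126, or 2.24-fold (adjusted p = 6.49e-10), and the second Mmp2 probe set gave 1.15. Mmp9, a product of neutrophils and macrophages, was lower by 0.54 (difference -0.54 ± 0.126, adjusted p = 0.000552), with levels from -0.50 through -0.07 to 0.00 against a control median of 0.33. Of the 10 transgenic arrays, 9 were below every control array.

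Of the 4 membrane-type MMPs, Mmp14 and Mmp16 were higher (20.7% of all genes were). Mmp14, a collagenase that also activates pro-MMP2, ran from -0.62 through -0.08 to 0.26 in FVB IgG mice and from 0.42 through 0.73 to 1.06 in PKCe IgG mice, again without overlap. The difference was 0.78 ± 0.119 (adjusted p = 8.05e-07). Mmp14 has 2 probe sets and the other one gave -0.01 ± 0.127 (adjusted p = 0.962), so the Mmp14 values here hold for 1 of its 2 probe sets. Mmp16 differed by 0.33 ± 0.123 (adjusted p = 0.0288). Its other probe set gave 0.14 ± 0.132 (adjusted p = 0.396), and its call was lost in 7 of 21 alternatives and without any 1 of 5 mice (FVB IgG replicates 1 and 5, PKCe IgG replicates 1, 9 and 10). Mmp17 (0.11) and Mmp24 (-0.16) were not called. Mmp23, an unusual membrane-anchored MMP, was higher by 1.06 ± 0.162 (adjusted p = 9.16e-07), and all 10 transgenic arrays were above the control median.

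The collagenases and stromelysins gave no rise. None of the 9 was higher, and 4 were lower: Mmp13 (-0.75 ± 0.277, adjusted p = 0.026), Mmp7 (-0.18), Mmp10 (-0.10) and Mmp1a (-0.09). Of all genes, 20.7% were higher and 21.5% lower. Mmp13 levels ran from -1.33 to 2.10 in FVB IgG mice and from -0.79 to 1.07 in PKCe IgG mice, so the ranges overlapped over most of their width.

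The AP-1 motif TGANTCA was searched on both strands of RefSeq promoter windows (GRCm38.p6, 250 bases before to 50 after each start), which were at hand for 32 of the 56 members. It was present for 11 of the 32 member genes (34.38%) and for 8.97% of all 27025 genes. Of the 11 genes, 8 were MMPs, all on chromosome 9, so the 11 need not be independent of each other. In the comparison of PKCe IgG with FVB IgG mice, none of the 11 was higher and 5 were lower, with differences from -0.75 to 0.33. The 5 were Mmp13 (-0.75), Adam25 (-0.19), Mmp7 (-0.18), Mmp10 (-0.10) and Mmp1a (-0.09). Of the 21 members with a window that lacked TGANTCA, 5 were higher and 6 lower. Over all genes 20.7% were higher and 21.5% lower, and the difference between the sets was not tested. The 100 bases before the start of 5 AP-1-bearing MMP genes of chromosome 9 are shown as examples, chosen because the motif lies nearest to the start in them (first base at -35 to -63). Mmp1a, Mmp1b and Mmp20 carry it farther away, with its first base at -73, -93 and -95. For Mmp12 the stretch belongs to the second of 2 annotated starts, and the window of its first start has no TGANTCA. Capitals mark the motif:
Mmp3: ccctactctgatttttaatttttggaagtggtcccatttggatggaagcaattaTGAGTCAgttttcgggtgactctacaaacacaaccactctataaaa
Mmp7: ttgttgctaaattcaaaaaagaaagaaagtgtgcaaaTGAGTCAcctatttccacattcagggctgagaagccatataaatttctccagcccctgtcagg
Mmp10: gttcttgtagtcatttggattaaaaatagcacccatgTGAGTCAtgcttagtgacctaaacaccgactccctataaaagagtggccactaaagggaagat
Mmp12: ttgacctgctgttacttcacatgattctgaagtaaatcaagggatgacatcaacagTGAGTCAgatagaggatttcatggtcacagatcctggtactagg
Mmp13: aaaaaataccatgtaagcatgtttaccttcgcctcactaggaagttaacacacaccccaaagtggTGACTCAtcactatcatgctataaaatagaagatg
They cover, on the plus strand, chr9:7445722-7445821 for Mmp3, chr9:7691990-7692089 for Mmp7, chr9:7502242-7502341 for Mmp10, chr9:7347274-7347373 for Mmp12 and chr9:7272414-7272513 for Mmp13.

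Timp1 and Mmp14 had no TGANTCA match in their windows. Both held the ETS core AGGAAG, which 16 of the 32 member genes and 38.42% of all genes hold. Their 250 bases before the start are shown because these genes both rose with the transgene and fell with the antibody. Capitals mark the AGGAAG matches:
Timp1: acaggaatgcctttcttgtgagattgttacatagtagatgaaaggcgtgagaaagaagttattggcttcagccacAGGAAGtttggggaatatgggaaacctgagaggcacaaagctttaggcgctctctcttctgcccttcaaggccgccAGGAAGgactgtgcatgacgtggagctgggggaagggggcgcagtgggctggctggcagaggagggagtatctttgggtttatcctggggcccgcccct
Mmp14: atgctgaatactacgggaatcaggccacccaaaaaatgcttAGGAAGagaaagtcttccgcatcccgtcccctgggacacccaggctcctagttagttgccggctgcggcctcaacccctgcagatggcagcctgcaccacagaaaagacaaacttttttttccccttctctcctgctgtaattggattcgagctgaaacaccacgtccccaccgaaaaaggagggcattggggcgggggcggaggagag
The stretches are chrX:20869916-20870165 for Timp1 and chr14:54431348-54431597 for Mmp14, both on the plus strand. A match is a string of letters and was not tested as a binding site.

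Among the 9 ADAM proteases of somatic tissues, Adam9 and Adam15 were higher and Adam33 lower. Of all genes, 20.7% were higher and 21.5% lower, so these counts are near the background. Adam9, a widely expressed sheddase, ran from -0.25 through -0.08 to 0.01 in FVB IgG mice and from 0.10 through 0.38 to 1.07 in PKCe IgG mice. Its difference was 0.56 ± 0.0639 (adjusted p = 2.33e-09). Adam15, a vascular ADAM with an integrin-binding motif, ran from -0.54 through -0.34 to -0.07 against 0.06 through 0.35 to 0.64, a difference of 0.64 ± 0.107 (adjusted p = 4.45e-06). Neither overlapped between groups. In all, arrays did not overlap for 4 members (Mmp2, Mmp14, Adam9 and Adam15, each higher), against 4.38% of all genes. The other 3 Adam15 probe sets were not called in this comparison.

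Adam10 and Adam17, the main sheddases of Notch and of TNF, were not called (-0.25 ± 0.114 and 0.14 ± 0.118). Their probe sets did not read alike. For Adam10, 1 of the other 2 was higher by 0.35 ± 0.0744 (adjusted p = 0.000226). For Adam17, 1 of the other 2 probe sets was higher by 0.27 ± 0.0493 (adjusted p = 2.55e-05), and the other gave 0.02. The neural ADAMs without protease activity, Adam22 and Adam23, were lower by -0.16 and -0.30. Adam11 gave -0.14 and was not called.

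The 13 ADAMs of germ cells and epididymis are known for roles in sperm and not in heart. Their standard deviations over the 44 arrays were 0.071 to 0.204, against a median of 0.221 over all genes. Of the 13, 3 (23.1%) were called lower, against 21.5% of all genes, with differences of -0.19 to -0.14. The falls of Mmp7, Mmp10, Mmp1a, Adam22 and Adam33 were no larger than the largest of these.

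Of the 7 ADAMTS proteases, 2 were higher and 3 lower (20.7% and 21.5% of all genes were). Adamts10, which acts on fibrillin microfibrils, was higher by 0.79 ± 0.118 (adjusted p = 5.47e-07), and Adamts4, an aggrecanase and versicanase, by 0.52 ± 0.134 (adjusted p = 0.00189). Adamts4 levels ran from -0.50 through -0.02 to 0.40 in FVB IgG mice and from -0.31 through 0.53 to 1.30 in PKCe IgG mice, and 8 of the 10 transgenic arrays were above every control array. Its second probe set gave 0.82 ± 0.149. Without the atrial-high arrays the Adamts4 difference was 0.33 ± 0.166 and was no longer called (adjusted p = 0.111). Adamts7, Adamts1 and Adamts15 were lower (-0.59 ± 0.138, -0.52 ± 0.178 and -0.48 ± 0.179). Adamtsl5 was higher by 0.27 ± 0.11 (adjusted p = 0.0464).

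**Figure D2:**
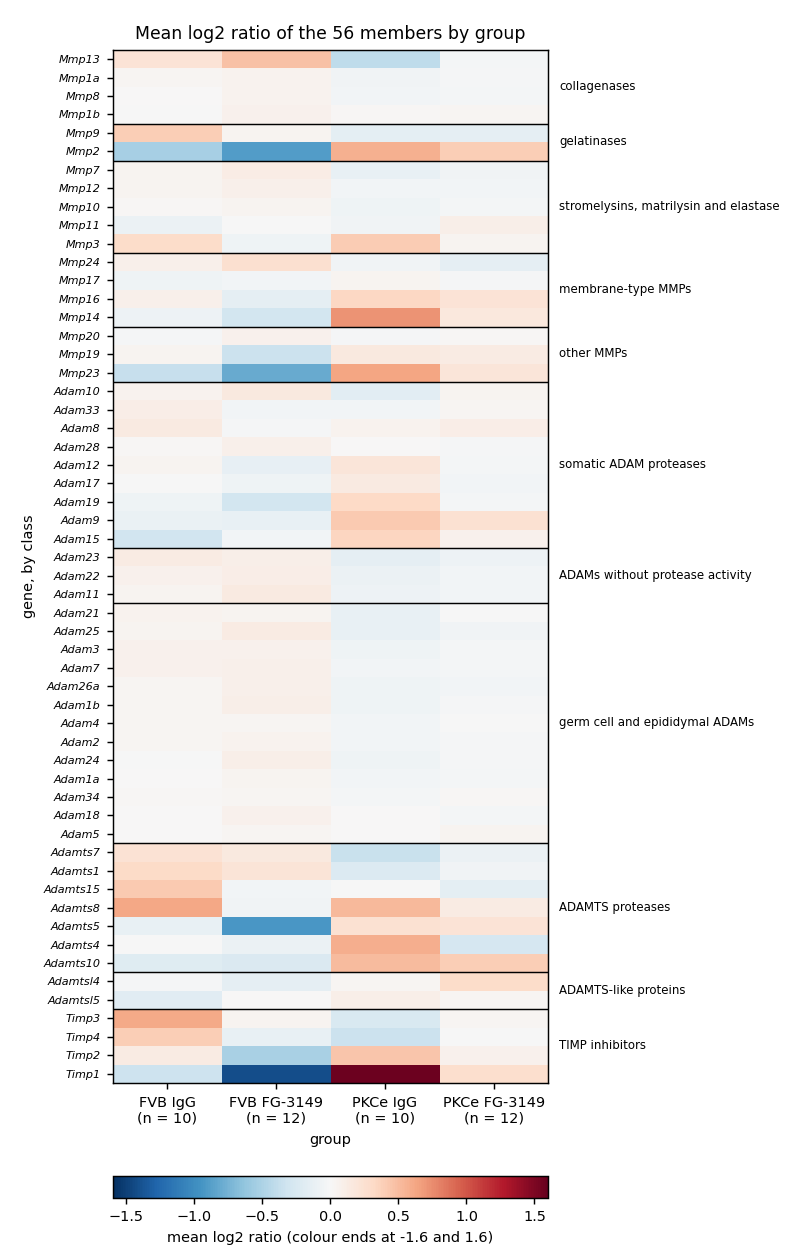
Mean log2 ratio of each of the 56 members (rows, grouped by class) in the 4 groups (columns, 10 or 12 mice each), with red above and blue below the median over arrays. Timp1, Mmp2, Mmp23 and Adamts10 are red in PKCe IgG and blue in FVB IgG mice, Adamts4 is red in PKCe IgG mice alone, and the germ cell ADAMs are near white throughout.

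Mice given FG-3149 allow the same question in other mice, although both comparisons share the sex term and variance of 1 fit and the median that scales each probe set. Between PKCe FG-3149 and FVB FG-3149 mice, 21 members were called, against 47.0% of all genes. Of these, 11 were higher (21.5% of all genes) and 10 were lower (25.5% of all genes). Of the members called under IgG, 11 were also called here, which is 42.3% of the 26 and 52.4% of the 21, and all 11 had the same direction. Over all genes the shares were 67.2% of the IgG calls and 60.4% of the FG-3149 calls, with the same direction for 98.4% of the genes called in both. The members' shares lie below these, and that difference was not tested. The sign was the same for 50 of the 56 members (89.3%) and for 82.3% of all genes. Arrays did not overlap for Mmp2, Mmp23 and Timp1, against 5.25% of all genes.

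Mmp2 differed by 1.28 ± 0.114 under FG-3149 (adjusted p = 6.31e-12), with levels from -1.20 through -0.87 to -0.65 in FVB FG-3149 mice and from -0.20 through 0.40 to 0.88 in PKCe FG-3149 mice. Timp1 differed by 1.69 ± 0.247 (adjusted p = 4.86e-07), and Mmp23 was 1.995-fold higher (adjusted p = 5.16e-07). Mmp14 (0.45 ± 0.107), Adam9 (0.36 ± 0.0578) and Adamts10 (0.62 ± 0.106) were also called. These 6 genes were higher in PKCe than in FVB mice under both antibodies.

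Other members were called under 1 antibody. Adamts4 gave -0.17 ± 0.121 under FG-3149 (adjusted p = 0.237), Adam15 gave 0.10 ± 0.0969, Timp3 -0.01 ± 0.182 and Timp4 0.11 ± 0.273. Adamts5, the other main aggrecanase, was higher by 1.14 ± 0.222 (adjusted p = 5.46e-05) under FG-3149 and gave 0.25 ± 0.245 under IgG. Timp2 (0.59 ± 0.153), Mmp19 (0.47 ± 0.116) and Adamtsl4 (0.44 ± 0.0886) were called under FG-3149 and not under IgG. Of the other 5 Timp2 probe sets, 4 were higher and 1 was lower (-0.30 ± 0.0842, adjusted p = 0.00352). The other Mmp19 probe set gave -0.13 ± 0.0924 and was not called. Whether the transgene difference itself changed with the antibody is the interaction, given below.

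**Figure D3:**
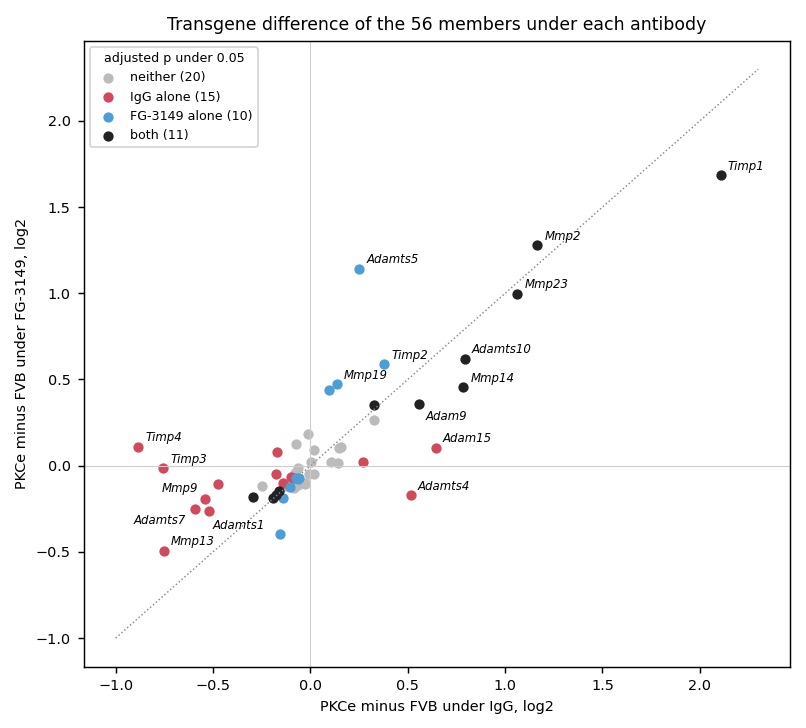
Log2 difference between PKCe and FVB mice for each of the 56 members under IgG (horizontal axis) and under FG-3149 (vertical axis), with the dotted line where both are equal. The 11 members called under both lie in the upper right and lower left, and Adamts4, Adam15, Timp3 and Timp4 lie near 0 on the vertical axis.

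The next comparison asks what the antibody did in transgenic hearts. Between PKCe FG-3149 and PKCe IgG mice, 3 members were called, against 8.82% of all genes. All 3 were lower (3.74% of all genes were) and none was higher (5.08% of all genes were). Of the members not called, 7 had an unadjusted p under 0.05.

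Adamts4 had the lowest p. Its level ran from -0.66 through -0.32 to 0.36 in PKCe FG-3149 mice, against -0.31 through 0.53 to 1.30 in PKCe IgG mice. All 12 antibody-treated arrays were below the IgG median and 6 were below every IgG array. The difference was -0.84 ± 0.127 (adjusted p = 4.33e-05), a 1.79-fold lower level, and the second probe set gave -0.64 ± 0.141 (adjusted p = 0.00296). The fall was present in females (-0.94 ± 0.202) and in males (-0.74 ± 0.148) fitted apart.

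Timp1 fell by 1.30 on the log2 scale (difference -1.30 ± 0.259, adjusted p = 0.00118), a 2.46-fold lower level. PKCe FG-3149 arrays ran from -0.77 through 0.13 to 1.48, and 7 of the 12 were below every PKCe IgG array. The treated transgenic mice still lay above FVB mice given the same antibody, without overlap, as given above. Leaving out the atrial-high arrays gave -1.24 ± 0.264, and leaving out the lung-marker arrays gave -1.18 ± 0.264.

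Mmp14 fell by 0.55 on the log2 scale (difference -0.55 ± 0.113, adjusted p = 0.00135). Levels in PKCe FG-3149 mice ran from -0.37 through 0.20 to 0.51, and 10 of the 12 were below every PKCe IgG array. The second Mmp14 probe set gave 0.06 ± 0.12 (adjusted p = 0.842), and the mean of both gave -0.25 ± 0.0989, which was not called (adjusted p = 0.113).

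Mmp2, whose level had differed most firmly with the transgene, gave -0.18 ± 0.12 (adjusted p = 0.422) with the antibody. Mmp23 gave -0.44 ± 0.154 (adjusted p = 0.0656), with all 12 treated arrays below the IgG median. Timp2, Timp3 and Timp4 gave -0.38 ± 0.161, 0.28 ± 0.191 and 0.34 ± 0.286, and none was called. Adam17 was not called by its chosen probe set (-0.19 ± 0.112), while its other 2 probe sets were lower (-0.22 ± 0.0468 and -0.28 ± 0.0613, adjusted p = 0.00236 and 0.00279). No array-by-array separation was found for any member in this comparison, and 0.113% of all genes had one.

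**Figure D4:**
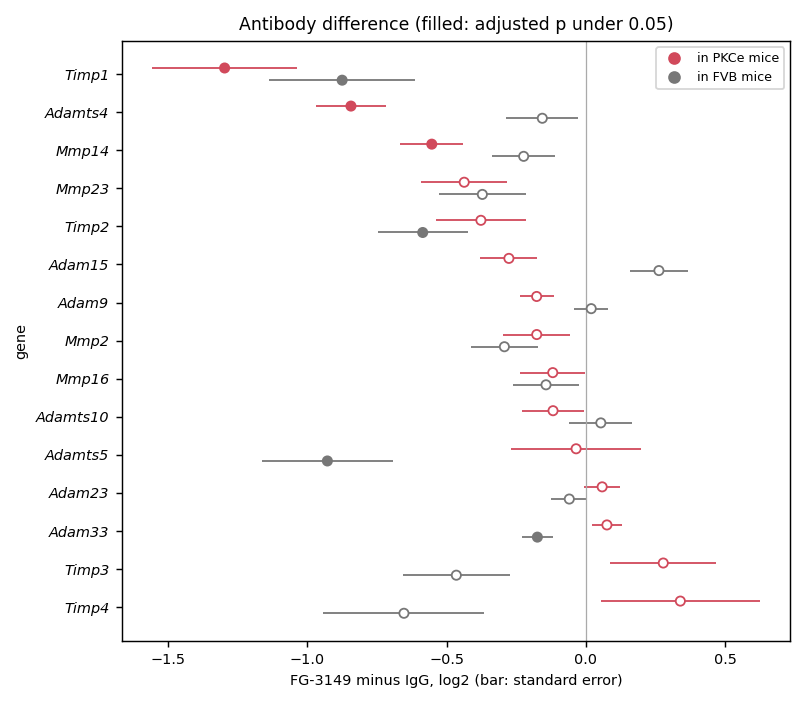
Log2 difference between FG-3149 and IgG (horizontal axis, with its standard error) for 15 members in PKCe mice (red) and FVB mice (grey), filled where the adjusted p was under 0.05. Timp1, Adamts4 and Mmp14 are filled and below 0 in PKCe mice, and Timp1, Timp2, Adamts5 and Adam33 in FVB mice.

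In wild-type hearts the antibody comparison called 5 members, against 9.0% of all genes, and all 5 were lower (4.57% of all genes were, and 4.43% were higher). They were Adamts5 (-0.93 ± 0.235, adjusted p = 0.00843), Timp1 (-0.88 ± 0.262, adjusted p = 0.0277), Timp2 (-0.59 ± 0.162, adjusted p = 0.0166), Adamts15 (-0.52 ± 0.172, adjusted p = 0.0467) and Adam33 (-0.17 ± 0.055, adjusted p = 0.0372). Timp1 is the 1 member called in both genotypes. In the same comparison 4 of 12 fibroblast markers (median -0.31), 4 of 6 adipocyte markers (median -1.04) and 5 of 6 atrial markers (median -2.90) were lower, and none of these was higher.

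The Timp1, Timp2, Timp3 and Mmp2 levels of the FVB IgG group differed between arrays with high and low atrial markers. In the 5 FVB IgG arrays with an atrial level above 4, Timp1 was 0.10, 0.19, 0.64, 0.84 and 1.24. In the other 5 it was -1.47, -1.46, -1.34, -1.08 and -0.94, within the range of the FVB FG-3149 arrays (-1.87 to -0.80). All 5 atrial-high arrays were from females, and 2 of the other 5 were. Timp2 was -0.05 to 1.22 in the first set and -0.72 to 0.02 in the second. In the same order, Mmp2 was -0.63 to 0.01 and -1.16 to -0.62, and Timp3 was 0.29 to 1.76 and -0.15 to 0.68. Adamts4 leaned the other way, with -0.50 to 0.34 and -0.05 to 0.40. The ranges of Timp4, Adamts5, Adamts15, Adam33 and Mmp14 overlapped widely between the sets. Without the atrial-high arrays of all groups, no member was called for the antibody in FVB mice. The share of all genes called in that fit is not given here. Timp1 then gave -0.25 ± 0.301 (adjusted p = 0.863) and Timp2 -0.18 ± 0.148. Adamts5 gave -0.76 ± 0.325 (adjusted p = 0.32).

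Adamts5 differed from the TIMPs in its spread. Its level ran from -0.44 through -0.17 to 0.44 in FVB IgG mice, and from -3.85 through -0.94 to 0.24 in FVB FG-3149 mice. In that group 8 of the 12 arrays were below every FVB IgG array and 3 were above the IgG median. The second Adamts5 probe set gave -0.91 ± 0.141 (adjusted p = 3.48e-05). In PKCe mice the antibody difference was -0.04 ± 0.232.

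**Figure D5:**
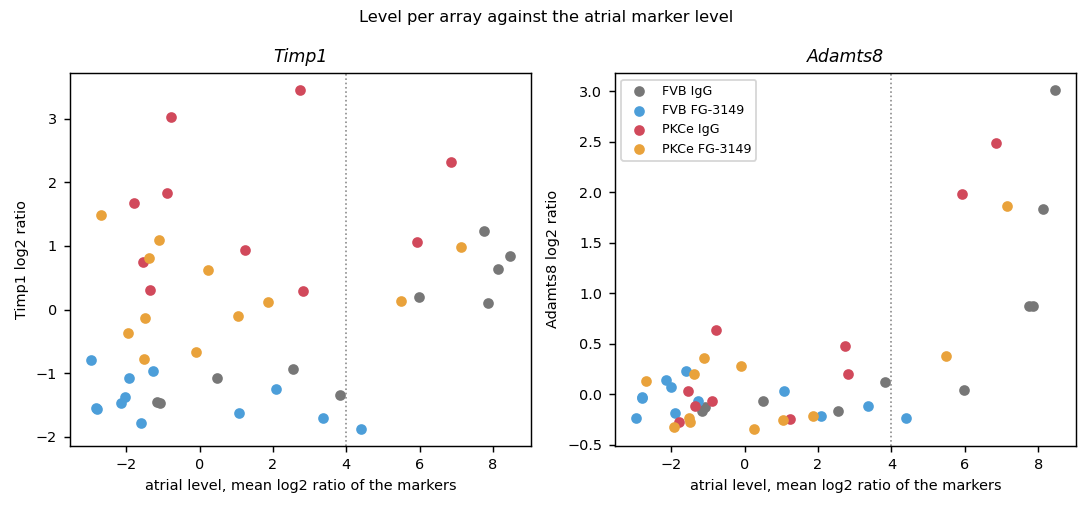
Timp1 (left) and Adamts8 (right) on each of the 44 arrays against the mean log2 ratio of the atrial genes Sln, Myl7 and Myl4, coloured by group, with a dotted line at 4. The FVB IgG arrays fall into 2 sets for Timp1, 0.10 to 1.24 right of the line and -1.47 to -0.94 left of it.

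Adamts8, an ADAMTS protease with few known substrates, was called in no comparison, though its standard deviation over arrays (0.781) was close to that of Adamts5 (0.786), the highest of its class. Its level was above 1 on 5 arrays, and all 5 were among the 10 arrays with an atrial level above 4. The highest was 3.01 in FVB IgG replicate 2. On the 34 arrays with a lower atrial level it ran from -0.34 to 0.64. The part that atrial tissue plays in these levels was not tested.

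The antibody difference in PKCe mice was then set against that in FVB mice. This interaction called 2 members, against 3.86% of all genes. Adamts4 gave -0.69 ± 0.181 (adjusted p = 0.0207), and its second probe set -0.68 ± 0.201 (adjusted p = 0.0421). Adam15 gave -0.54 ± 0.144 (adjusted p = 0.0237), since it was -0.28 ± 0.102 in PKCe mice and 0.26 ± 0.103 in FVB mice, neither of which was called alone. Timp1 gave -0.42 ± 0.368 (adjusted p = 0.657), so a difference between the genotypes in its response to the antibody was not shown. Without the atrial-high arrays Adamts4 gave -0.47 ± 0.21 and Adam15 -0.37 ± 0.164, and neither was called (adjusted p = 0.357 and 0.355). Without both lung-marker PKCe IgG arrays Adam15 gave -0.50 ± 0.151 and was not called (adjusted p = 0.0569), while Adamts4 gave -0.77 ± 0.178 (adjusted p = 0.00872).

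Sex was associated with 15 members over all groups, against 15.8% of all genes. Of these, 8 were higher in females (8.67% of all genes were) and 7 were lower (7.12% of all genes were). Timp1 was higher in females by 1.08 ± 0.186 (adjusted p = 8.98e-05), Adamts10 by 0.43 ± 0.08, Mmp16 by 0.36 ± 0.0837, Mmp2 by 0.35 ± 0.0859 and Timp3 by 0.47 ± 0.137. Timp4 (-0.71 ± 0.205), Mmp13 (-0.65 ± 0.189), Adamts5 (-0.59 ± 0.167) and Adamts4 (-0.37 ± 0.0913) were lower in females. The other probe sets of Adamts4 (-0.10 ± 0.101) and Mmp16 (0.22 ± 0.0895) were not called for sex. Most arrays with a high atrial level were from females. When those arrays were left out, the sex calls of Timp3 (adjusted p = 0.125) and Adamts4 (adjusted p = 0.0562) were lost. Those of Timp1, Adamts10, Mmp16, Mmp2, Timp4 and Adamts5 stayed, and Mmp13 was not among the differences recomputed.

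Among PKCe IgG mice, Timp1 was 1.67, 1.83, 2.32, 3.02 and 3.45 in the 5 females and 0.29, 0.31, 0.75, 0.93 and 1.06 in the 5 males. The sexes did not overlap. In PKCe FG-3149 mice the females ran from 0.13 to 1.48 and the males from -0.77 to 0.12, again without overlap. Mmp2 was 0.72 to 1.04 in PKCe IgG females and 0.09 to 0.52 in males. The 5 PKCe IgG males carry mouse numbers 192 to 196 and the 5 females 322 to 362. Sex and a batch that followed these numbers could not be told apart in that group.

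No member was called for a transgene difference that depended on sex, against 0.0807% of all genes, and 2 members had an unadjusted p under 0.05. Without the atrial-high arrays, 3 were called: Timp1 (2.15 ± 0.464 larger in females, adjusted p = 0.0113), Mmp2 (0.86 ± 0.205 larger, adjusted p = 0.0222) and Adam3 (-0.47 ± 0.119, adjusted p = 0.0324). Of the FVB IgG females, replicates 5 and 10 alone remained in that fit, and its share of all genes called is not given here. The PKCe IgG females left were replicates 7 to 10, and replicates 9 and 10 were the arrays with high Sftpc. No member was called for an antibody difference in PKCe mice that depended on sex, against 0.0161% of all genes, and 2 had an unadjusted p under 0.05.

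The members that rose did so beside fibroblast markers. Of 12 fibroblast markers, 10 were higher in PKCe IgG than FVB IgG mice and none was lower, with a median difference of 1.02. Their mean level ran from -0.80 to 0.39 in FVB IgG, -0.97 to -0.39 in FVB FG-3149, 0.15 to 1.21 in PKCe IgG and -0.05 to 0.83 in PKCe FG-3149 mice. With the antibody, 4 of the 12 were lower in PKCe mice (median difference -0.15) and 4 in FVB mice (median -0.31), and the interaction called none. Of 10 macrophage markers, 2 were higher with the transgene under IgG and none changed with the antibody in PKCe mice. Of 7 neutrophil markers, 1 was lower with the transgene. In bulk tissue, fewer cells of a type and less RNA per cell cannot be told apart, and the part of cell numbers in the members' differences was not tested.

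After group and sex were removed, 10 pairs of measures were correlated over the 44 mice with permutation tests. Mmp2 followed the fibroblast marker mean with Pearson r = 0.874 and Spearman rho = 0.832, and Timp1 followed it with r = 0.815 and rho = 0.793 (p = 1e-05 for each, the smallest that the permutations can give; adjusted p = 3.33e-05 for r and 5e-05 for rho). Within single groups r was 0.701 to 0.909 for Mmp2 and 0.646 to 0.908 for Timp1. Timp1 and Mmp2 correlated at r = 0.657 and rho = 0.614 (permutation p = 1e-05 and 3e-05, adjusted p = 3.33e-05 and 0.0001). Mmp14 followed the marker mean less closely (r = 0.55 and rho = 0.465, permutation p = 0.00018 and 0.00163, adjusted p = 0.00045 and 0.00326). Leaving out the 2 mice farthest from the median changed these 4 values of r to 0.836, 0.763, 0.546 and 0.488.

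Adamts4 stood apart from them. Its r was -0.135 with the fibroblast marker mean, -0.189 with Timp1, 0.0455 with Mmp14 and -0.129 with Mmp2, with permutation p from 0.221 to 0.766 and adjusted p from 0.316 to 0.766. Within groups the values with the marker mean ran from -0.738 in FVB IgG to 0.412 in FVB FG-3149 mice.

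Genes that act with the members or on other proteases were read from lists chosen with earlier results of these data known. For the counts below, 20.7% of all genes were higher and 21.5% lower with the transgene under IgG. With the antibody, 5.08% were higher and 3.74% lower in PKCe mice, and 4.43% were higher and 4.57% lower in FVB mice. The lists were not tested against these shares. Of 17 measured ADAMTS substrates and partners, 9 were higher and 1 was lower in PKCe IgG than in FVB IgG mice. Versican (Vcan), a substrate of ADAMTS4 and ADAMTS5, rose by 1.99 ± 0.185 and the fibrillin partner Ltbp2 by 2.79 ± 0.29. With the antibody, 6 of the 17 were lower in PKCe mice and 5 in FVB mice, none was higher in either, and the interaction called none. In PKCe mice Vcan differed by -0.82 ± 0.175 (adjusted p = 0.00203) and Ltbp2 by -1.74 ± 0.275 (adjusted p = 6.65e-05).

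Of 16 genes in a list of other protease inhibitors, activators and clearance receptors, 8 were higher and 3 lower with the transgene under IgG. The cysteine protease inhibitor Cst6 rose by 2.27 ± 0.199 and the procollagen C-proteinase enhancer Pcolce by 1.31 ± 0.127. Lrp1, which takes up MMP and TIMP complexes, rose by 1.21 ± 0.138. Bsg, an inducer of MMPs on cell surfaces, was lower with the transgene (-0.74 ± 0.108) and higher with the antibody in PKCe mice (0.61 ± 0.103, adjusted p = 0.000163), while Cst6 and Pcolce were lower with the antibody.

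Of 23 plasminogen system and other matrix proteases, 8 were higher and 5 lower with the transgene (20.7% and 21.5% of all genes were). The called genes were led by Bmp1, the procollagen C-proteinase (0.85 ± 0.0865), and Ctsk, a collagen-cutting cathepsin (0.96 ± 0.129). With the antibody in PKCe mice Plat (-0.52 ± 0.0941) and Ctsd (-0.19 ± 0.0608) were lower. Of 21 ADAM substrates and partners, 10 were higher and 3 lower with the transgene. Hbegf, an EGF receptor ligand released by ADAMs, rose by 0.97 ± 0.117 and gave 0.00 ± 0.111 with the antibody. Of 16 AP-1 and cytokine genes, 5 were higher and 2 lower with the transgene. The called genes with the lowest p were Stat3, Runx1, Socs3 and Il6. Il6, which can induce Timp1, rose by 0.88 ± 0.297 (adjusted p = 0.016). With the antibody in PKCe mice 3 were lower, namely Il6 (-1.09 ± 0.282, adjusted p = 0.0105), Lif and Runx1. A link between Il6 and the Timp1 levels was not tested.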

How the data were processed

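Values were deposited by the authors as linear ratios, computed in GeneSpring GX 7.3.1 from GCRMA signals, with each probe set's median across arrays as the divisor, per the series' design text. Because both steps used all arrays, absolute signal and detection are unknown. The ratios were put on the log2 scale here with no pseudocount, and none of the members' values lay at the lowest ratio of 0.01. Array medians were 0.954 to 1.032. Of 22690 probe sets, 20393 name 1 gene, 691 several and 1606 none, and those naming 1 gene were kept. limma 3.58.1 (R 4.3.3) fitted 4 group means and sex with empirical Bayes variances. Comparisons that depend on sex used a mean for each group and sex. p-values of gene differences were Benjamini-Hochberg adjusted over 12394 genes. Values of a member's other probe sets came from the same model fitted to all 20393 probe sets that name 1 gene. Their p-values were adjusted over those probe sets. Arrays are separate mice. Precision is limited by how many arrays a group has.

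Members and gene lists were chosen with earlier results of these data known. A set of 15 members was chosen by rule: Timp1 to Timp4, Adamts4 and called members with the lowest adjusted p. The rule took up to 8 for the transgene under IgG and for the antibody in PKCe mice, and up to 4 for each other comparison. It added Adam9, Adam15, Adam23, Adam33, Adamts5, Adamts10, Mmp2, Mmp14, Mmp16 and Mmp23. Levels are given for part of this set and also for Mmp9, Mmp13 and Adamts8. Of other lists, up to 4 called genes are named. Promoter sequences are RefSeq's. Correlations used 100000 permutations, two-sided (SciPy 1.17.1). Alternatives covered normalization, probe set choice, covariates and left-out arrays.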

Additional observations from a re-analysis of the deposited data

Results flagged for a closer look

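Among the 15 members chosen by the rule above, the groups of 10 mice were searched for a sample far from the others. This gave 30 groups, of which chance flags about 1 in 20, and 2 samples were found. The Adam9 level of PKCe IgG replicate 9 was 1.07, with the nearest at 0.62 and a group median of 0.38. That array also had the high Sftpc. The Mmp14 level of FVB IgG replicate 10 was -0.62, with the nearest at -0.18 and a group median of -0.08. Groups of 12 were not searched.

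The antibody difference was not the same in the 2 genotypes for Adamts4 (-0.69 in PKCe minus FVB) and Adam15 (-0.54), by the interaction test. Without the atrial-high arrays they were -0.47 and -0.37, and neither was called.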

How the results depend on the processing

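Members called numbered 26, 3, 5, 2, 21 and 15 for the transgene under IgG, the antibody in PKCe mice, the antibody in FVB mice, their interaction, the transgene under FG-3149 and sex. For the 15 members chosen by the rule above, 43 called differences were recomputed, and all 855 alternative values kept their direction. These include the stricter threshold of 0.01, which leaves the value itself unchanged. Differences of the other members, such as Mmp9 and Mmp13, are not among them. Of the 855, 764 kept their side of the threshold and 91 did not, and 20 of the 43 differences kept it in every alternative. Timp1 and Adamts4 stayed called for the antibody in PKCe mice in all 21 alternatives.

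For the transgene under IgG, 17 members were called without the lung-marker arrays or with the Gapdh 3' minus 5' difference as a covariate, 10 in males only and 12 at an adjusted p under 0.01. For the transgene under FG-3149, 9 were called in males only and 12 at 0.01, and 6 for sex at 0.01. For the antibody in PKCe mice, 6 were called with array weights or with only the groups compared. For the antibody in FVB mice, 0 were called without the atrial-high arrays, with the atrial level as a covariate, in females only or in males only. It was 1 with the Actb difference as a covariate (chosen after seeing the data), at 0.01 or with only the groups compared, and 3 without FVB FG-3149 replicate 11 or after quantile normalization. For the interaction, 1 was called without the lung-marker arrays, and 0 at 0.01, in either sex alone, without the atrial-high arrays or with the atrial level as a covariate. The transgene difference by sex went from 0 to 3 members without the atrial-high arrays. The shares of all genes called in these alternative fits, and in those below, are not given here. These counts therefore do not show a change particular to the members. The causes were not tested.

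Leaving out 1 mouse at a time gave 18 to 31 members for the transgene under IgG, 3 to 6 for the antibody in PKCe mice (6 without FVB IgG replicate 2, 5 without PKCe FG-3149 replicate 4 or 8), 2 to 7 for the antibody in FVB mice (2 without FVB IgG replicate 2 or FVB FG-3149 replicate 6; 3 without FVB IgG replicates 3, 4 or 8 or FVB FG-3149 replicates 3, 7, 11 or 12), 2 to 3 for the interaction, 17 to 24 for the transgene under FG-3149, 11 to 18 for sex, and 0 for both tests of dependence on sex. Timp1 in FVB mice lost its call without 6 of the 44 mice.

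Mice in different groups share replicate numbers. Residuals of same-numbered mice correlated above 0.1 in 15 of 62 pairs (range -0.303 to 0.297). By pair of groups, their mean correlation was -0.0775 to 0.0818, and that of differently numbered mice -0.00811 to 0.00648. The highest mean was between FVB IgG and FVB FG-3149 mice. The mice were treated as unpaired, and these values cannot exclude shared handling of same-numbered mice. A replicate block gave 25, 3, 4, 2, 19 and 13 members called, in the order above.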
